A study of Mus musculus with 9 samples.

Results

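Ribosomal protein pseudogene copies are stretches of the mouse genome that resemble the mature messenger RNA of a ribosomal protein gene. They were taken here as the rows whose gene name is that of a ribosomal protein gene of the large (Rpl) or small (Rps) subunit followed by -ps and a number or nothing, with a count above 0 in at least 1 library. Of 260 rows with such a name, 220 met the rule, out of 46072 rows in the tables and 26108 rows with a count. Copies of these genes listed under other names fall outside the rule and were not included. The libraries came from splenic monocytes of female C57BL/6 mice aged 8 to 10 weeks, and each of the 3 groups was made up of 3 mice. Water was given by gavage in Con. Van mice received 2 mg of vancomycin per mouse and day by gavage for 6 days. VanLip mice received the same vancomycin and then the lipid L654 by the retro-orbital route on days 7, 9 and 11, and all mice were rested after gavage, for 8 days in these cohorts within a protocol range of 6 to 8 days. The cells were obtained by magnetic negative selection from spleen, and their identity rests on that selection. The summed FPKM (fragments scaled to transcript length and sequencing depth) of the monocyte markers lay between 9618 and 12180 in all 9 libraries, that of the B cell markers between 589 and 917, and that of the red pulp macrophage markers between 913 and 1388. Erythroid markers summed to 99.6 to 202 FPKM in Con, 343 to 772 in Van and 278 to 1162 in VanLip. Their part in the results below was not tested.

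Ribosomal protein genes encode the structural proteins of the ribosome and are among the most abundantly transcribed genes of any cell. Their short, abundant messengers have often been copied back into the genome by the reverse transcriptase of LINE elements, which leaves processed pseudogenes that lack introns. Because such a copy can be nearly identical to the messenger of its parent gene, a sequencing read from the parent can also align to the copy, and a count on a copy need not stem from transcription of that locus.

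The libraries of the groups differed in how they were sequenced. The total expected count ranged from 43070361 to 61383806 across Con and Van, whereas VanLip reached 170503471 to 184720704. An expected count scales with read length, so a fragment weighs more in VanLip, and the number of fragments implied was 16151385 to 23018927 in Con and Van and 42625868 to 46180176 in VanLip. The commonest low value corresponded to a read length of 100 bases in Con and Van and of 150 bases in VanLip, although a single length of 100 bases is given for the series. Read length and depth therefore cannot be told apart from the L654 treatment in any comparison with VanLip. Within the Van against Con comparison the read lengths were equal.

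The 220 copies belonged to 56 parent genes by name. The annotation classes 1 of these, Rps4l, as a transcribed processed pseudogene itself, and it stood at 4.06 to 9.05 FPKM. Of these families, 17 had 1 copy and 39 had 2 or more, with 20 copies of Rps12, 19 of Rpl31, 13 of Rps19 and 12 of Rpl21. The annotation GENCODE M21 on GRCm38 held 219 of the copies. It classed 208 as processed pseudogenes, 6 as transcribed processed pseudogenes and 5 as protein-coding genes, and 212 had a single exon. Between genes lay 146 copies, while 47 lay in an intron of a gene on the opposite strand, 19 in an intron on the same strand and 7 over an exon. On the same chromosome as the parent lay 10 copies.

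The Rps12, Rps10 and Rpl28 families show how little can separate a copy from its parent. They were picked for display and do not stand for all copies. The lines below give 150 bases of coding sequence, aligned without gaps, with each base that differs from the parent in capitals. For each family this is the stretch with the most differing positions over the copies shown. Rps12, Rps10 and Rpl28 encode proteins of the small subunit (Rps12, Rps10) and the large subunit (Rpl28). The parent stretches are spliced from exons within chr10:23785986-23787007 (Rps12, minus strand), chr17:27630490-27632355 (Rps10, minus strand) and chr7:4793579-4794165 (Rpl28, plus strand). The copies lie on GRCm38 at chr19:59322371-59322520 (Rps12-ps3, plus strand, within an intron of Pdzd8 on the opposite strand), chr8:123206623-123206772 (Rps12-ps9, plus strand, within an intron of Gm20388), chrX:125857932-125858081 (Rps12-ps14, minus strand, between genes), chr3:95622601-95622750 (Rps10-ps1, plus strand, between genes), chr16:20822168-20822317 (Rps10-ps2, minus strand, between genes), chr1:128038726-128038875 (Rpl28-ps1, plus strand, within an intron of Zranb3 on the opposite strand) and chr4:126069974-126070123 (Rpl28-ps3, minus strand, within an intron of Oscp1 on the opposite strand). The stretches of Rps12-ps3 and Rpl28-ps1 had 0 differences from their parents and are not printed again.
Rps12: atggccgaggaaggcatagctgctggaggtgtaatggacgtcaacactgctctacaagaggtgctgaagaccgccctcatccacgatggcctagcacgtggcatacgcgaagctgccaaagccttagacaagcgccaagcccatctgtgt
Rps12-ps9: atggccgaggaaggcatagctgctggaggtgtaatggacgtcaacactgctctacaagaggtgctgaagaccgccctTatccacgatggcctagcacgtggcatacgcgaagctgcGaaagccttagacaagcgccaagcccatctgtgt
Rps12-ps14: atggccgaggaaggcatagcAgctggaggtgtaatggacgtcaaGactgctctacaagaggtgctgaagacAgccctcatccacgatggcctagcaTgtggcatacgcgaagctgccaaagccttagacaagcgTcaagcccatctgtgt
Rps10: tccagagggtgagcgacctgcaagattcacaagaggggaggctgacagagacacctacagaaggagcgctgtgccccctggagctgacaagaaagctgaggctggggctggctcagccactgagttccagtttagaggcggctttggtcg
Rps10-ps1: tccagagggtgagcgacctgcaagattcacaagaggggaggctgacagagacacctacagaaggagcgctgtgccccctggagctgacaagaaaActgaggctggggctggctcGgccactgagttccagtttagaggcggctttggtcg
Rps10-ps2: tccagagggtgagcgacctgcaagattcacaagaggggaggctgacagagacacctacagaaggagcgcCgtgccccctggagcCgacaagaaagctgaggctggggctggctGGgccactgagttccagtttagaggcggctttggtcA
Rpl28: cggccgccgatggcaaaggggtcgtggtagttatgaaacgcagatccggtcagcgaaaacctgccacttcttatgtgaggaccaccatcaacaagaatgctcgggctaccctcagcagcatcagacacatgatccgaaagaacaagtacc
Rpl28-ps3: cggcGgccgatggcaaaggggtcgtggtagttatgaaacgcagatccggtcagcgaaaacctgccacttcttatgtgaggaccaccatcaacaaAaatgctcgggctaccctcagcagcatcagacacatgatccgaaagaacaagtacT

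Counted from the first base of the start codon, Rps12-ps9 differed from Rps12 by C78T and C117G, and Rps12-ps14 by T21A, C45G, C72A, C97T and C135T. Rps10-ps1 and Rps10-ps2 shared A438G. Each also had differences of its own, such as G418A in Rps10-ps1 and T393C in Rps10-ps2. Rpl28-ps3 carried C162G, G252A and C307T.

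In all, 219 copies were aligned locally to a parent transcript. They were 151 to 1214 bases long, with a median of 455 bases. For Rpl17-ps11 and Rpl18-ps1 the aligned part was only 37 and 64 bases, and Rpl13-ps1 aligned over its full length on the opposite strand. With these included, the median identity over the aligned part was 97.3%, with quartiles at 93.7% and 98.97% and a lowest value of 67.7%. Identity reached 99% or more in 53 copies, and 13 were identical to the parent over their full length. A window of 100 bases, the read length implied for Con and Van, occurred in no other annotated transcript for a median of 84.0% of the windows of a copy, and a window of 150 bases, as implied for VanLip, for 98.7%. No window of 150 bases was particular to the copy in 30 copies, and for windows of 100 bases this held for 31.

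The level of a copy followed its likeness to the parent. The median copy stood at 0.742 to 1.36 FPKM across the 9 libraries, against 447 to 479 FPKM for the median parent. Between 185 and 200 copies had a count above 0 in any 1 library, and 162 had at least 10 counts in at least 3 libraries. The median level was 39.7 FPKM among 14 copies of 100% identity over the aligned part, 16.5 FPKM among 39 copies of 99% to under 100%, 2.17 FPKM among 62 copies of 97% to under 99%, 0.464 FPKM among 38 copies of 95% to under 97% and 0.0468 FPKM among 63 copies under 95%. Across 216 copies, which share libraries and in many cases a parent, Spearman's rho between level and identity was 0.81. The corresponding rho with the level of the parent was 0.02 over 217 copies.

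**Figure D1:**
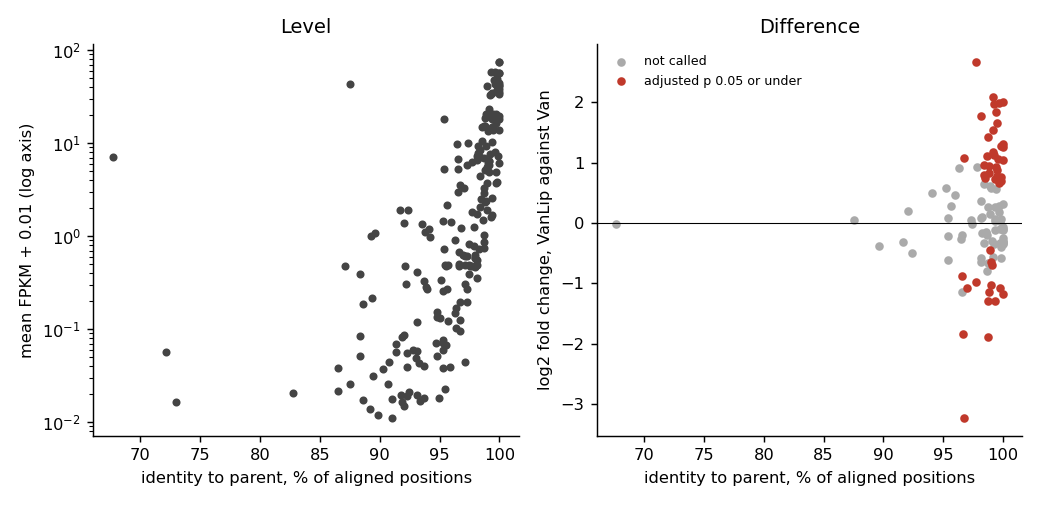
Each dot is 1 copy, plotted by identity to its parent (% of aligned positions). The left panel gives the mean FPKM over 9 libraries plus 0.01 on a log axis, which climbs steeply above 95% identity, and the right panel gives the log2 fold change of VanLip against Van for copies whose normalized count averaged at least 50, where called copies (red) lie on both sides of 0.

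The most abundant copy in every Con and Van library was Rps6-ps4, a full-length match of the small-subunit gene Rps6 within an intron of 2600014E21Rik, at 76.7 to 85.2 FPKM. In all 3 VanLip libraries it was Rps13-ps1, a copy of the small-subunit gene Rps13 that lies between genes and was 99.6% identical, at 99.4 to 134 FPKM. The 10 most abundant copies held 30.7% to 32.1% of the summed FPKM of the copies in Con and Van and 35.8% to 38.3% in VanLip.

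The copies taken by name held a small share of the counts on them and their parents. Of the counts on copies and parents together, the copies held 4.61%, 4.34% and 3.896% in Con, 4.02%, 4.03% and 4.30% in Van and 5.22%, 6.11% and 4.77% in VanLip. The means were 4.28% ± 0.36 (SD, n = 3) in Con, 4.11% ± 0.16 (SD, n = 3) in Van and 5.37% ± 0.68 (SD, n = 3) in VanLip. The VanLip libraries did not overlap with the other 6, and the second VanLip library was the highest of all. Without it the VanLip mean was 5.00%. The parents held 2.40% to 2.56% of all counts in every library.

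**Figure D2:**
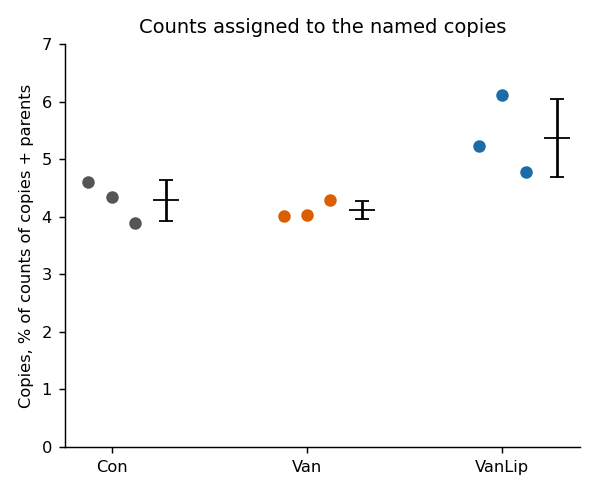
Share of the counts of copies and parents that was assigned to the copies (%), 1 dot per library, with the group mean and SD (n = 3) as a bar beside the dots. The 3 VanLip libraries, from 4.77% to 6.11%, lie above the Con and Van libraries.

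Vancomycin alone gave no called copy, which with 3 mice per group does not show equal levels. In the Van against Con comparison, 0 of 217 copies passed an adjusted p of 0.05 (DESeq2, Benjamini-Hochberg over all genes), where 3.16% of all genes tested did. At an unadjusted p under 0.05 there was 1 copy, where 2822 of 25420 genes were, and edgeR called 0 copies. The lowest adjusted p of any copy was 0.319 (DESeq2), for Rps24-ps3, with a log2 fold change of -0.38 ± 0.19 (SE). Among 112 copies whose normalized count averaged at least 50, the quartiles of the log2 fold changes were -0.15 and 0.01, against -0.13 and 0.13 for all 13503 genes of that abundance. The log2 fold changes of these 112 copies ran from -0.59 to 0.71. Of the 217 copies, 139 had a negative and 71 a positive log2 fold change, against 12106 and 11351 of all genes, and this lean was not tested. Leaving out the third Van library gave 2 calls, Rps24-ps3 and Rpsa-ps9, both lower.

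In VanLip many copies moved, and in both directions. Against Con, 64 of 217 copies were called (DESeq2, adjusted p of 0.05 or under), 32 higher and 32 lower, where 4.34% of all genes tested were called, 1.94% higher and 2.4% lower. Against Van, 62 copies were called, 37 higher and 25 lower, where 6.99% of all genes tested were called, 3.25% higher and 3.74% lower. The 2 comparisons share the VanLip libraries. Both called the same 32 copies higher and the same 24 lower, and 0 copies were called in opposite directions. Normalized counts of all 3 VanLip libraries lay above the 6 others in 38 copies, where 4.48% of all genes did so, and below them in 39, where 3.96% did. The quartiles of the log2 fold changes of the 112 more abundant copies were -0.41 and 0.77 against Con and -0.35 and 0.78 against Van, while for all genes of that abundance they were -0.13 and 0.14 and -0.15 and 0.15. The number of calls changed with the test and with single libraries. Where calls are split by direction below, the lower ones dropped more. The share of all genes called under these settings is not given here, so these counts do not show whether the drop is particular to the copies. Against Con, edgeR called 24 copies higher and 8 lower, thinning the VanLip libraries to the depth of the others gave 28 higher and 13 lower, and leaving out Con replicate 1, Con replicate 2 or VanLip replicate 1 left 39, 38 and 41 calls. Against Van, edgeR called 30 higher and 10 lower, thinning gave 32 higher and 12 lower, and 27 higher and 7 lower calls were made when log2(FPKM + 1) was fitted with limma.

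**Figure D3:**
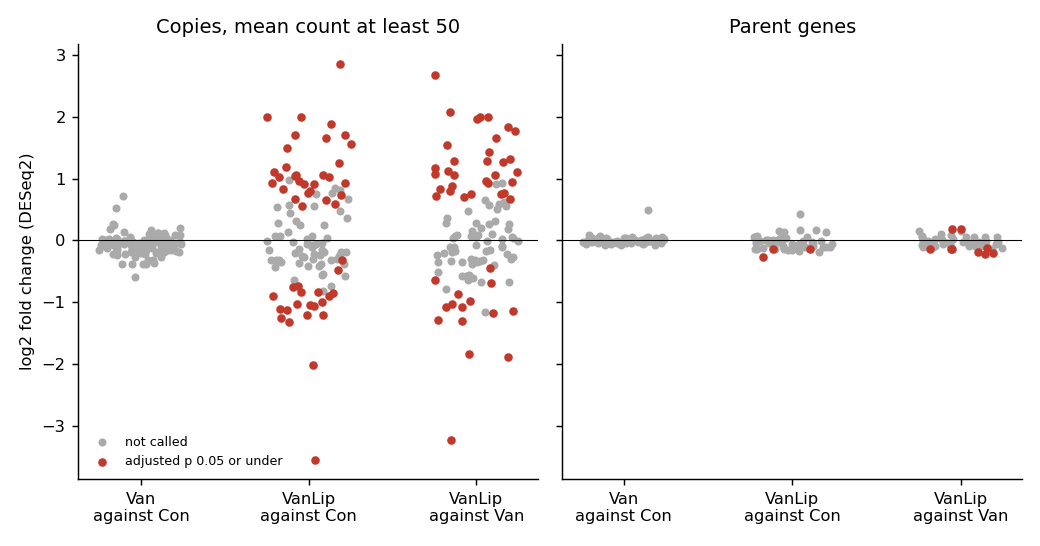
log2 fold change (DESeq2) in the 3 comparisons, 1 dot per gene, for the 112 copies whose normalized count averaged at least 50 (left) and the 56 parent genes (right), with called genes in red. Called copies lie on both sides of 0 in both VanLip comparisons, while 0 copies are called in Van against Con.

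The copies that rose most firmly were Rps12-ps3, Rps13-ps1, Rpl17-ps10, Rpl34-ps1 and Rps27a-ps2. Rps12-ps3 had normalized counts of 766, 886 and 744 in Con, 715, 753 and 928 in Van and 3295, 3520 and 2756 in VanLip. Every VanLip library was far above every other library. The log2 fold change was 2.00 ± 0.14 (SE) against both Con and Van. Rps13-ps1 stood at 1286 to 1747 in Con, 1348 to 1575 in Van and 5050 to 6747 in VanLip, with a log2 fold change of 1.89 ± 0.14 (SE) against Con. Its parent Rps13, a small-subunit gene, had 21003 to 21597 in VanLip and 22609 to 24240 in the others, and was not called. Rpl17-ps10 lies between genes and copies the large-subunit gene Rpl17. It had 2309 to 2353 in Con, 2047 to 2283 in Van and 4332 to 5011 in VanLip, a log2 fold change of 1.12 ± 0.08 (SE) against Van. Rpl34-ps1 (314 to 448 outside VanLip, 1062 to 1357 in VanLip) and Rps27a-ps2 (1482 to 1822 outside, 3739 to 4336 in VanLip) likewise did not overlap. Rps27a encodes a ribosomal protein fused to ubiquitin.

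Other abundant copies rose too. Rps16-ps2, Rpl31-ps8, Rps23-ps2 and Rpl23a-ps3 rose by 1.05, 1.27, 1.06 and 0.70 on the log2 scale against Van. Rps16-ps2 and Rpl31-ps8 are identical to their parents over their full length, so no window of a read distinguishes them. Rpl10-ps3, also 100% identical over its aligned part and annotated as protein coding, had 3513 to 4455 in Con, 4009 to 4531 in Van and 3233 to 4670 in VanLip, and these ranges overlap. Rps23-ps1, another full-length match, had 1632 to 2281 in VanLip and 2270 to 2736 in the other libraries, with an adjusted p of 0.075 against Van (DESeq2). Rps6-ps4 fell by 0.32 on the log2 scale against Con, with 4217 to 5215 in VanLip and 5374 to 6182 elsewhere, and it was not called against Van. Its call against Con was lost with edgeR (adjusted p = 0.117) and without Con replicate 1, Con replicate 2, VanLip replicate 1 or VanLip replicate 3 (adjusted p of 0.0515 to 0.124, DESeq2), and over all alternatives the adjusted p ran from 0.000152 to 0.124.

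Falling copies included Rps19-ps6, Rps10-ps2, Rpl28-ps1 and Rps15a-ps6. Rps19-ps6, in an intron of Tecpr2, had 874 to 1172 outside VanLip and 423 to 500 in VanLip, a log2 fold change of -1.15 ± 0.14 (SE) against Van. Rps15a-ps6, in an intron of Nudcd3, had 139 to 186 outside VanLip and 20.5 to 64.0 in VanLip. Rpl7a-ps11 and Rpl5-ps2, copies of large-subunit genes, fell by 1.08 and 1.30 on the log2 scale against Van. Rps18-ps1 fell by 2.84 and Rps24-ps3 by 1.02 against Con, and Rps19-ps4 fell by 0.97 against Van. With limma on log2(FPKM + 1), the calls of Rps10-ps2 in both comparisons and of Rpl28-ps1 and Rps24-ps3 against Con were lost, with the direction kept.

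In some families, copies of the same parent moved in opposite directions. Against Van, 33 families had a called copy. Of these, 19 had calls that were higher only, 8 had calls that were lower only, and 6 had both. Rps10-ps1 had 418 to 675 outside VanLip and 844 to 1114 in VanLip, whereas Rps10-ps2 had 2147 to 2568 outside and 824 to 1565 in VanLip. Rpl28-ps3 had 507 to 706 outside and 1746 to 3425 in VanLip, whereas the identical copy Rpl28-ps1 had 802 to 955 outside and 286 to 533 in VanLip. In both pairs the copies moved in opposite directions without any overlap between VanLip and the other libraries. Rps10-ps1 and Rps12-ps14 were chosen for display after their values were seen.

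**Figure D4:**
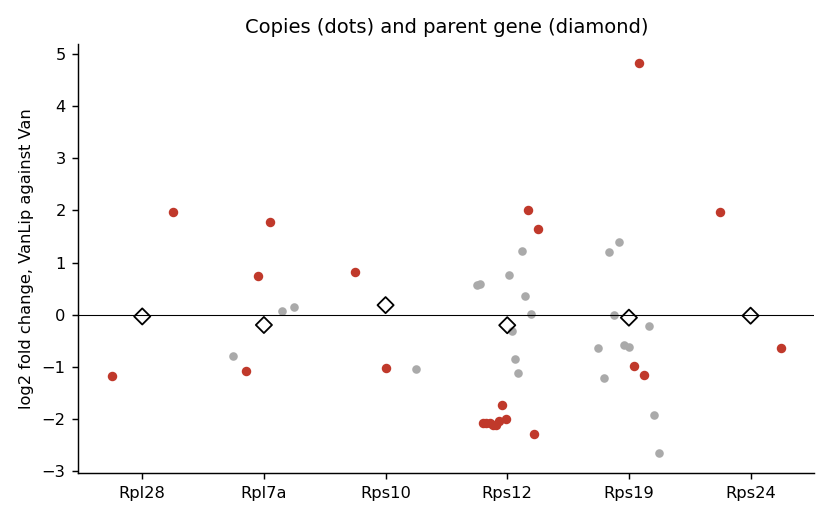
log2 fold change of VanLip against Van for every copy (dots, called copies in red) and the parent gene (diamond) of the 6 families with copies called in both directions. The parents lie from -0.20 (Rps12) to 0.19 (Rps10), and the parents Rps12, Rps10 and Rpl7a were themselves called. Called copies lie on both sides of 0 in each family, beside copies that were not called. The topmost dot is Rps19-ps5, singled out after its values were seen, with normalized counts of 1.57 to 9.26 outside VanLip and 90.1 to 128 in VanLip.

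The Rps12 family had the most copies. While Rps12-ps3 and Rps12-ps9 rose, a group of 13 Rps12 copies between chrX:123285044-125987364 went the other way. These copies were 399 to 402 bases long and 95.3% to 98.0% identical to Rps12, and 9 of them had no window of 150 bases of their own. Their summed normalized counts were 323, 322 and 130 in Con, 227, 201 and 322 in Van and 44.7, 94.7 and 57.2 in VanLip. All VanLip libraries were lower than all others. Of the 13 copies, 9 were called lower against Van, with log2 fold changes from -2.29 to -1.72, and as copies that share windows they are not independent of each other. The other 4 had group means of at most 3.12 normalized counts.

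**Figure D5:**
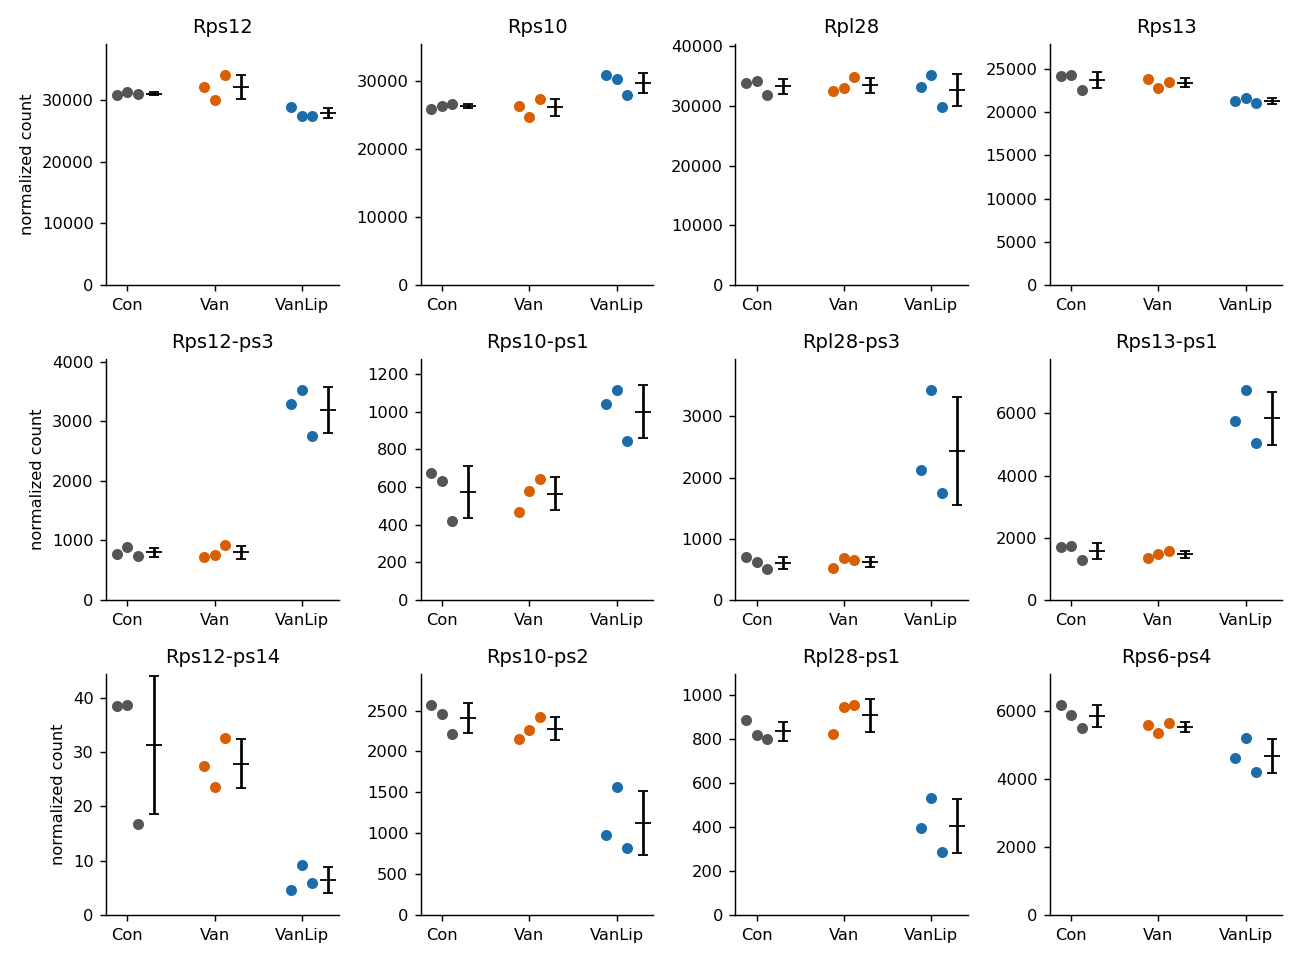
Normalized counts per library (dots) with the group mean and SD (n = 3) for 4 parent genes or copies per row, each panel on its own axis from 0. In the left 3 columns the parent stands on top, a copy that was higher in VanLip in the middle and a copy that was lower at the bottom, and the right column gives Rps13, Rps13-ps1 and Rps6-ps4.

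The parents moved far less than their copies. Of 56 parents, 0 were called in Van against Con, 3 in VanLip against Con (all lower) and 9 in VanLip against Van (2 higher, 7 lower), by DESeq2. The called parents included Rpl23a, with a log2 fold change of -0.22 ± 0.06 (SE) against Van, Rps12 with -0.20 ± 0.06 (SE) and, in the other direction, Rps6 with 0.18 ± 0.05 (SE). edgeR called 0 parents in both VanLip comparisons, and leaving out any 1 library left 1 to 4 calls against Van. When the counts of each parent and its copies were added together, 1 family was called against Con and 3 against Van, all lower. The log2 fold change of Rps12 against Con went from -0.15 to 0.01 on adding its copies, and that of Rps13 from -0.15 to 0.09. Of the 79 cytosolic ribosomal protein genes, 5 were lower and 0 higher against Con, and 8 were lower and 2 higher against Van. These are 6.33% and 12.7% of the list, where 7.58% and 12% of all genes averaging at least 50 counts were called, and edgeR called 0 of the list in either comparison. Of 14 measured genes for other parts of the translation machinery, such as elongation and initiation factors, 0 were called in any comparison.

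Other pseudogenes gave fewer calls per gene tested. Against Con, 15 of 233 other named pseudogene copies (7 higher, 8 lower) and 218 of 2906 other processed pseudogenes of the annotation (106 higher, 112 lower) were called, against 4.49% of the other protein-coding genes. Among rows with an adjusted p, 13.8% and 18.6% of these pseudogenes, in the same order, were called. The shares were 41.3% of the ribosomal protein copies and 5.52% of the other protein-coding genes. The processed pseudogenes were taken by annotation class and not by parent, so ribosomal protein copies under other names can be among them. The median mean count of these sets of other pseudogenes was 10.0 and 5.35, against 56.0 for the ribosomal protein copies, and the difference between the sets was not tested. By identity to the parent, the calls against Van were spread as follows, with no test between the ranges, whose median levels differ as given above. Of the 14 copies of 100% identity, 4 were higher and 1 lower, and 17 of the 39 copies of 99% to under 100% identity were higher and 4 lower. Of 62 copies of 97% to under 99%, 10 were higher and 17 lower, of 38 copies of 95% to under 97%, 1 was higher and 3 lower, and of 63 copies under 95%, 4 were higher and 0 lower. Over the 111 more abundant copies with an alignment, Spearman's rho between the log2 fold change against Van and identity was 0.14, and with copy length it was -0.15. Between identity and the size of the log2 fold change, regardless of sign, rho was 0.0438 against Van and -0.00726 against Con.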

How the data were processed

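Splenic monocyte RNA was profiled in 9 libraries, 3 per group. According to the submitters' processing notes, reads were aligned to GRCm38 with HISAT2 2.2.1 and handled with SAMtools 1.9, and the authors computed FPKM with StringTie 2.1.3. The deposited expected counts were derived by the authors from those values with tximport 1.26.1; DESeq2 1.38.3 is also listed. The annotation release and the treatment of reads with several alignments are not given in the sources used here. The libraries were made with a stranded kit.

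Expected counts were rounded and fitted for all 9 libraries with group as the only term in DESeq2 1.42.0 (R 4.3.3), with Wald tests, median-of-ratios scaling and Benjamini-Hochberg adjustment over all genes. The threshold for a call was an adjusted p of 0.05. Normalized counts are the expected counts after that scaling. Because tximport scales counts by a length of 75 bases, an expected count exceeds the number of fragments, and 3 copies whose counts rounded to 0 were absent from the fit. Copies without an adjusted p numbered 48 to 62 per comparison. Replicates are separate mice. Alternatives were edgeR 4.0.16, limma 3.58.1 on log2(FPKM + 1), other scalings, filters, thinning, a replicate block and leaving out each library. The tests were tried on simulated counts, and the outcome is not given here.

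Copies were matched to GENCODE M21 by gene identifier. Each was aligned in both orientations to the protein-coding transcripts of the parent, or to all its transcripts where it had none that was protein coding. The alignment was local (Biopython 1.88, match 1, mismatch -1, gap opening -3, gap extension -1), and the best-scoring transcript was kept. Genes named in the text were, per comparison, up to 8 rising and 8 falling called copies by adjusted p averaging at least 20 normalized counts in the higher group, the 10 copies of highest mean FPKM, and their parents, except 1 copy that is not reported here. Rps10-ps1, Rps12-ps14, Rps19-ps5, Rpsa-ps9, Rpl17-ps11, Rpl18-ps1 and Rpl13-ps1 fall outside this rule and were named after their values or alignments were seen. The copies and lists were chosen with earlier results of these data known. All 9 sample columns of each table were used.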

Additional observations from a re-analysis of the deposited data

How the results depend on the processing

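The number of copies called for VanLip against Con was 64. It was 32 with edgeR, 41 with VanLip fragments thinned, 23 with limma on log2(FPKM + 1), 21 with a pseudocount of 0.1 and 38 after a filter at 1 FPKM. For VanLip against Van it was 62, and 40, 34, 33 and 37 with edgeR and the 3 limma settings. Leaving out 1 library gave 38 to 71 and 42 to 82 calls, and 0 to 2 for Van against Con. The parents called against Con (3) became 0 with edgeR and 1 with only the 2 groups compared, with the replicate block, without independent filtering and with limma on log2(FPKM + 0.1) or after the filter at 1 FPKM, and 1 to 2 without 1 library. Against Van (9) they became 0 with edgeR, 1 with only the 2 groups and with the replicate block, 5, 1 and 2 with the 3 limma settings and 1 to 4 without 1 library, and for Van against Con 0 to 1. The share of all genes called under each setting is not given here, and the cause of these changes was not tested.

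The share of counts on copies was 5.87%, 5.65% and 7.72% in Con, Van and VanLip when FPKM were summed, and leaving out 1 library gave 4.12% to 4.48%, 4.02% to 4.16% and 5.00% to 5.66%. Replicate numbers share only a number (correlations of deviations from -0.05 to 0.09). With the replicate block, copies called numbered 1, 51 and 52 in the 3 comparisons.

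With parent and copies summed, and among the parents of named copies in the VanLip comparisons, the sign of the log2 fold change turned for Rpl17 against Van (0.0242), Rpl28 against Con (0.0339) and Van (0.0236), Rpl31 against Con (0.00275) and Van (0.00718), Rps12 against Con (0.00563), Rps13 against Con (0.0871) and Van (0.116), Rps16 against Van (0.0723) and Rps19 against Con (-0.0234). Rpl10-ps3, not called, ranged from -0.195 (without VanLip replicate 2) to 0.0705 (without VanLip replicate 3) against Con, with 0.0204 without Con replicate 1, and for Rpl10-ps3, VanLip against Van, the range was -0.241 to 0.0245 without the same VanLip libraries.

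Depth limits copies with low counts, and the counts do not show from which locus a read arose.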
